A study of Mus musculus with 4 samples.

Results

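Genes for the subunits of oxidative phosphorylation were described in the dentate gyrus (DG) of mice after electroconvulsive stimulation (ECS). They were chosen by name only, with no measured value. A probe set (the group of short probes that reads a transcript) was taken if its annotation gave a single symbol that began with Nduf plus a, b, c, s or v, with Uqcr, with Cox plus a digit between 4 and 8, or with Atp5, or that was Sdha, Sdhb, Sdhc or Sdhd. This gave 156 of 22626 probe sets, which stand for 84 of 12393 genes. The proteins of 78 of these genes (147 probe sets) are subunits. The other 6 genes only share the name: Ndufaf1, Ndufaf3, Ndufaf4, Ndufaf5 and Ndufaf7 are assembly factors, and Cox7a2l is a factor that joins complexes III and IV into supercomplexes. They are given apart.

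RNA from the dissected DG of C57Bl/6 mice was measured on 4 Affymetrix Mouse Genome 430A 2.0 arrays, 1 for each group, and each array held the pooled RNA of 3 mice. The groups were 11 ECS with dissection 1 h after the last ECS (11 ECS), a single ECS with dissection 1 h later (single ECS), 10 ECS with dissection 48 h after the last ECS (10 ECS), and sham treatment with dissection 1 h later (sham). For each ECS, pulses of 0.5 ms at a rate of 100 per s were passed between the ears for 1 s with a current of 25 mA, and the repeated groups had 4 ECS a week for up to 3 weeks. All mice, sham mice included, were anaesthetised with isoflurane, and sham mice were handled alike with no current. By its methods the study used male mice of this strain, bought at 8 weeks of age. A sham or an ECS session was given to naive mice or to mice with 10 earlier ECS, so that the 10 ECS group was the baseline of the 11 ECS group as sham was of single ECS. The titles, sources and treatment fields of the samples match each other, while for 3 samples the free-text field gives a different treatment, and groups were taken from the titles. With 1 array of pooled RNA in each group, no spread between mice or arrays can be had and no difference below was tested. The DG holds granule cells, interneurons and glia, and fewer cells of a type and less RNA per cell cannot be told apart in such samples.

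Oxidative phosphorylation is the last stage of respiration in the inner membrane of mitochondria. Complex I (NADH dehydrogenase) and complex II (succinate dehydrogenase) pass electrons to ubiquinone, complex III (cytochrome bc1) passes them to cytochrome c, and complex IV (cytochrome c oxidase) passes them to oxygen. Complexes I, III and IV pump protons as they do so, and complex V (ATP synthase) uses the proton gradient to make ATP. Neurons draw most of their ATP from this pathway, and a large share of it restores ion gradients after synaptic activity and spikes. A few subunits are coded by mitochondrial DNA, and all subunits described here are coded in the nucleus. Many of the nuclear genes have binding sites for the factors NRF1, GABP (an ETS factor), YY1, CREB, ERR or Sp1 near their start.

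The promoters were searched for short letter patterns of these factors, and 6 stretches are shown because each holds a pattern in the bases just before the start and belongs to a gene described below. The sequences are those of RefSeq for the mouse assembly GRCm38.p6. Each is the 120 bases directly before the annotated start, written 5′ to 3′ on the strand of the gene, with the pattern in capitals.
Atp5k (subunit e of complex V, chr5:108434400-108434519, minus strand, NRF1 pattern): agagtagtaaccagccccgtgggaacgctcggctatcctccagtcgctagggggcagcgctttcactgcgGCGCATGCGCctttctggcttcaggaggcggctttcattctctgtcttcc
Atp5g2 (subunit c of complex V, chr15:102671048-102671167, minus strand, NRF1 pattern): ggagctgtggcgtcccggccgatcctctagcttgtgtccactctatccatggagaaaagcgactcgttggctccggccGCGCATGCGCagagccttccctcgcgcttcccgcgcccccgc
Atp5g3 (subunit c of complex V, chr2:73911327-73911446, minus strand, ERR pattern on the opposite strand): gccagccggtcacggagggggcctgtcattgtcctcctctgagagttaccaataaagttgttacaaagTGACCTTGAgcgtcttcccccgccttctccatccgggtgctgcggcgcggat
Atp5j (coupling factor of complex V, chr16:84834977-84835096, minus strand, YY1 pattern): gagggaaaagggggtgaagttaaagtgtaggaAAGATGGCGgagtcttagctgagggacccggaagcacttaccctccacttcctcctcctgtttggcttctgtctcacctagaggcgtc
Uqcrh (hinge protein of complex III, chr4:116075071-116075190, minus strand, ETS pattern on the opposite strand): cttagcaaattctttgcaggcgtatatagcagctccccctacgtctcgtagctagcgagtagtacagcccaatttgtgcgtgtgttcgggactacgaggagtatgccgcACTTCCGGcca
Ndufb2 (accessory subunit of complex I, chr6:39592445-39592564, plus strand, CRE pattern): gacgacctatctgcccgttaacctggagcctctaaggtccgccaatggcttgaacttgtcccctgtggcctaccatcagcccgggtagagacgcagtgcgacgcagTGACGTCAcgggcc

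A promoter (250 bases before to 50 after the start) was matched for 64 of the 78 subunit genes, and both strands were searched. A gene counted if any of its promoters held the pattern. The YY1 pattern AAGATGGCG was in 6 of the 64 (9.38%), beside 2.82% of the 9883 genes on the array with a promoter. It was in 1.40% of all 32851 promoters, which were counted singly and so are not a like unit. The NRF1 pattern, the 10 capital letters in the sequence of Atp5k, was in 4 (6.25%, beside 1.82% and 0.971%), and the ERR pattern TCAAGGTCA was in 2 (3.13%, beside 0.344% and 0.423%). The 6 YY1 matches lay in complex I (Ndufa9, Ndufc1, Ndufs4 and Ndufs7) and complex V (Atp5j and Atp5j2). The ETS pattern CCGGAAGT was in 5 (7.81%, beside 7.23% of genes on the array and 3.89% of all promoters). The CRE pattern TGACGTCA was in 3 (4.69%, beside 3.00% and 1.79%), and the Sp1 pattern GGGCGG in 26 (40.6%, beside 61.1% and 35.7%). None of these patterns holds another of them. A match says only that the letters are there.

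The deposited values are MAS5 signals on a linear scale. The brightness of a probe set depends on its probes as well as on the RNA, so signals are compared between arrays and not between genes. Signals under a floor of 12 units were set to it. The arrays differed in overall brightness: their median signals were 56.7 (11 ECS), 56.3 (single ECS), 62.4 (10 ECS) and 69.3 units (sham). For each gene the log2 ratio of 2 arrays was therefore taken relative to the median log2 ratio of the 500 other probe sets nearest in mean log2 signal, and this relative log2 ratio is the quantity used below unless another is named. Where a gene had several probe sets, that of the highest mean stood for it. The 500 neighbours of all 78 genes, counted together, are called probe sets of similar brightness. The subunit genes were well measured: 75 of 78 were above the floor on all 4 arrays, and 69 had at least 500 units on every array. The 3 others were Cox4i2, Cox6b2 and Cox8b, isoforms of complex IV.

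**Figure D1:**
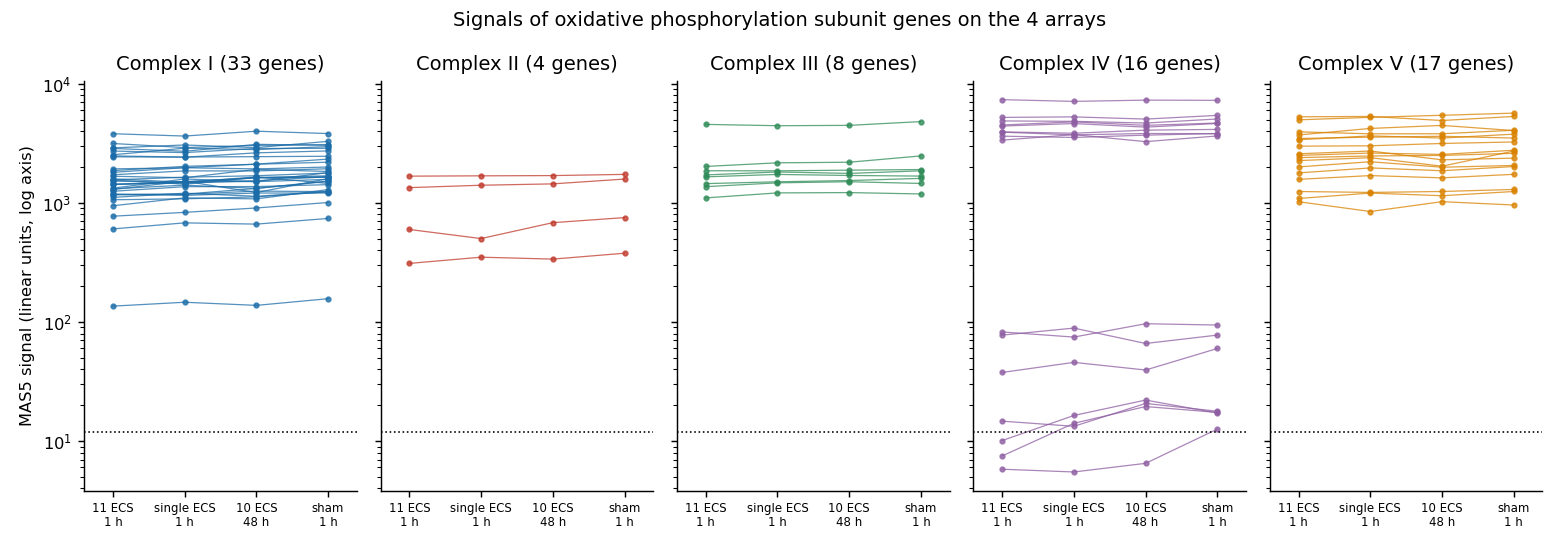
MAS5 signals (linear units, log axis) of the 78 subunit genes, 1 line per gene and 1 panel per respiratory complex, on the arrays of 11 ECS, single ECS, 10 ECS and sham, with the floor of 12 units as a dotted line. Lines only join the 4 arrays of a gene. Most lie flat above 500 units, and the dim lines of complex IV are tissue isoforms and Cox7c.

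The subunit genes as a group stayed close to probe sets of similar brightness in every comparison. Their median relative log2 ratio was -0.02 for 11 ECS over 10 ECS (77 genes), 0.01 for single ECS over sham (78 genes), 0.04 for 10 ECS over sham (78 genes) and -0.02 for 11 ECS over single ECS (77 genes). No subunit gene was 2-fold apart in any of these, while 0.662%, 1.11%, 0.649% and 0.482% of the probe sets of similar brightness were, in the same order. A limit of 1.2-fold, which is a size and not a test, was passed by 4 of 77, 3 of 78, 7 of 78 and 4 of 77 subunit genes. It was passed by 15%, 16%, 13.7% and 15.2% of the probe sets of similar brightness, and by 33.4%, 37.1%, 31.4% and 32.8% of all genes. The median size of the ratio, without its sign, was 0.05, 0.07, 0.06 and 0.08 for the subunit genes, and 0.09, 0.10, 0.10 and 0.10 for the probe sets of similar brightness.

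The direction of the family as a whole depended on the scaling between arrays in 3 of the 4 comparisons. For single ECS over sham, 44 subunit genes lay above 0 and 33 below on the relative scale. With the deposited signals 12 lay above and 66 below, and with every array scaled to the same median 68 lay above and 10 below. For 11 ECS over 10 ECS, 34 lay above 0 and 43 below on the relative scale, 18 and 59 with the deposited signals, and 51 and 26 after median scaling. For 10 ECS over sham the counts were 48 above and 30 below on the relative scale, 18 and 60 with the deposited signals, and 60 and 18 after median scaling. For 11 ECS over single ECS more genes lay below 0 under each scaling, with 34 above and 43 below on the relative scale, 25 and 52 with the deposited signals, and 29 and 48 after median scaling. The median deposited log2 ratio of all probe sets was itself -0.23 for single ECS over sham, -0.11 for 11 ECS over 10 ECS and -0.13 for 10 ECS over sham. Summed over the 78 genes, the deposited signal was 163359 units after 11 ECS, 167423 after single ECS, 168051 after 10 ECS and 175883 after sham. On the log2 scale these sums differed by -0.04 for 11 ECS over 10 ECS and -0.07 for single ECS over sham, where the sum of all probe sets differed by -0.05 and -0.12.

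Different probe sets of the same gene give the only error these arrays allow. Over the genes with several probe sets above the floor, the pooled SD of the relative log2 ratio was 0.17 for 11 ECS over 10 ECS (44 genes), 0.18 for single ECS over sham (44 genes), 0.19 for 10 ECS over sham (44 genes) and 0.19 for 11 ECS over single ECS (43 genes). For probe sets of at least 500 units it was 0.13, 0.10, 0.11 and 0.10 (34 genes). This SD covers probe sets and neither arrays nor mice. Of the 156 probe sets, 17 have IDs that mark probes shared by several transcripts (_s) and 26 IDs that mark probes able to bind other transcripts (_x), so genes of this family, which have many similar copies in the genome, may share signal.

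**Figure D2:**
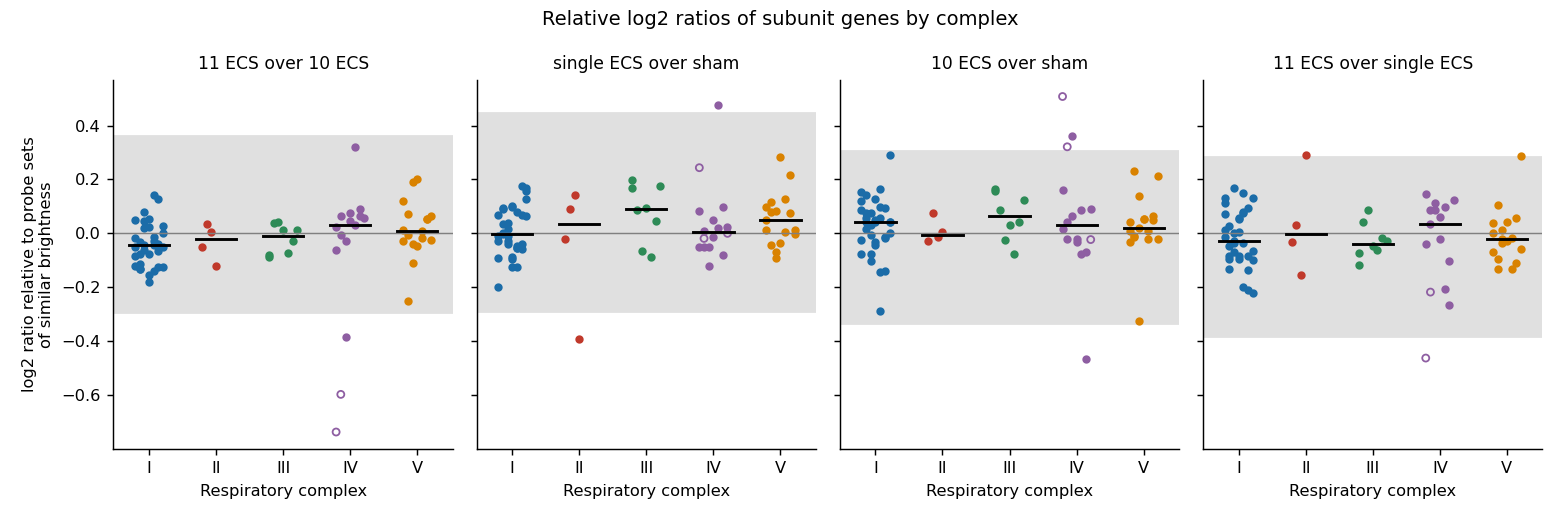
Relative log2 ratios of the subunit genes in 4 comparisons, 1 point per gene, by respiratory complex. Bars are medians, the grey band holds the 5th to 95th percentile of probe sets of similar brightness, and open points are genes at or under the floor on some array. Nearly all points lie inside the band. The point farthest outside belongs to complex IV, except in single ECS over sham, where it is Sdhd of complex II (-0.39).

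Complex I was represented by 33 genes. Their median relative log2 ratio was -0.04 for 11 ECS over 10 ECS (10 above 0, 23 below), -0.00 for single ECS over sham (16 above, 17 below), 0.04 for 10 ECS over sham (20 above, 13 below) and -0.03 for 11 ECS over single ECS (15 above, 18 below). Both acute comparisons had all 33 genes within 1.2-fold. Ndufv1 and Ndufs7, core subunits of the arm that takes up electrons, had small ratios. Ndufv1, which binds NADH and its flavin, had 1561.5 units after 11 ECS, 1645.2 after single ECS, 1691.8 after 10 ECS and 1782.8 after sham. Its relative log2 ratios lay between -0.06 and 0.03 in the 4 comparisons. Ndufs7, a core iron-sulfur subunit near the ubiquinone site, had 1063.3, 1082.4, 1124.6 and 1242.4 units on the same arrays in that order. The signals were lowest on the dimmer arrays, and relative to its neighbours Ndufs7 stayed between -0.03 and -0.01. Its other probe set gave ratios between -0.17 (10 ECS over sham) and 0.05.

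Larger values in complex I were found for other core and accessory subunits. Ndufs1, the largest iron-sulfur subunit, had 773.6 units after 11 ECS against 907.1 after 10 ECS, and 833.2 units after single ECS against 1008.1 after sham. It was lower on both arrays taken 1 h after ECS, with relative log2 ratios of -0.15 and -0.10. Ndufv2, another iron-sulfur subunit of this arm, had 1808.3 units after 11 ECS against 2117.4 after 10 ECS (-0.18), and 1976.3 after single ECS against 2333.8 after sham (-0.13). Its other probe sets did not share this: for 11 ECS over 10 ECS they gave 0.40 and -0.06. Ndufa6, an accessory subunit, had 1169.9 units after 11 ECS against 1322.9 after 10 ECS (-0.12), and 1185.8 after single ECS against 1516.4 after sham (-0.20).

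The 2 genes of complex I past 1.2-fold in 10 ECS over sham went in opposite directions. The shares of probe sets of similar brightness past this limit were 6.54% higher and 7.19% lower. Ndufb8, an accessory subunit of the membrane arm, had 1653.5 units after 10 ECS against 1457.7 after sham (0.29). On the other arrays it had 1593.4 units after 11 ECS and 1490.8 after single ECS, so both arrays of repeated ECS were above the other two. Ndufa2, an accessory subunit of the peripheral arm, had 1222.1 units after 10 ECS against 1600.5 after sham (-0.29), and 1295.9 units after 11 ECS against 1521.8 after single ECS (-0.20). Both arrays of repeated ECS were below the other two for this gene. Ndufb6 had 1913.6 units after 10 ECS against 1836.9 after sham (0.16), and its other probe set gave 0.01. Ndufb7, an accessory subunit of the membrane arm, had 947.2 units after 11 ECS, 1103.1 after single ECS, 1081.3 after 10 ECS and 1294.3 after sham, with relative log2 ratios between -0.21 and -0.06. Its other probe set gave 0.13 for single ECS over sham and 0.11 for 10 ECS over sham, so the sign of Ndufb7 in these depended on the probe set. Among the probe sets that stood for a gene, that of Ndufb1 was the dimmest of the complex, with 135.9, 146.5, 137.9 and 156.9 units on the arrays of 11 ECS, single ECS, 10 ECS and sham, and its largest ratio was 0.17 (single ECS over sham). Ndufb2, whose promoter is shown above, had 1252.9 units after 11 ECS, 1369.2 after single ECS, 1372.2 after 10 ECS and 1424.1 after sham, and its relative level spanned 0.10 over the 4 arrays.

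Complex II has 4 subunits and all were measured. Sdha, the flavoprotein that oxidises succinate, had 1344.3 units after 11 ECS, 1408.0 after single ECS, 1445.4 after 10 ECS and 1586.6 after sham. Sdhb, the iron-sulfur subunit, had 1678.4, 1688.8, 1697.0 and 1736.6 units on these arrays. Both kept relative log2 ratios between -0.05 and 0.09, while the other probe set of Sdha gave 0.19 for 10 ECS over sham. Sdhc had 310.5 units after 11 ECS against 337.4 after 10 ECS (0.00), and 350.2 units after single ECS against 378.1 after sham (0.14). Sdhd had 598.5 units after 11 ECS against 682.6 after 10 ECS (-0.12), and 502.0 units after single ECS against 753.0 after sham (-0.39). It was the only subunit gene past 1.2-fold lower in single ECS over sham, where 6.18% of probe sets of similar brightness were. The single ECS array was its lowest, and Sdhd was also past 1.2-fold higher in 11 ECS over single ECS (0.29), where 5.74% of them were. The second, dimmer probe set of Sdhd had 136.7 units after 11 ECS, 115.5 after single ECS, 163.1 after 10 ECS and 132.3 after sham, and its ratio for single ECS over sham was 0.10. This probe set was also lowest after single ECS and gave 0.25 for 11 ECS over single ECS. The sign of Sdhd in single ECS over sham thus depended on the probe set.

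Complex III was represented by 8 genes, none past 1.2-fold in any comparison. Their median was 0.09 for single ECS over sham and 0.07 for 10 ECS over sham, with 6 of 8 genes above 0 in each, and -0.01 for 11 ECS over 10 ECS. The higher values came from some of the small subunits. Uqcr10 had 1102.1 units after 11 ECS against 1221.4 after 10 ECS (-0.09), and 1214.1 after single ECS against 1189.4 after sham (0.20). Uqcrq, which sits next to cytochrome b, had 1369.7 units after 11 ECS against 1506.7 after 10 ECS (-0.08), and 1475.0 after single ECS against 1457.4 after sham (0.17). Uqcrh, the hinge protein that helps cytochrome c bind, had 1655.6 units after 11 ECS against 1700.5 after 10 ECS (0.01), and 1735.7 after single ECS against 1680.1 after sham (0.18). For all 3 the deposited signal of the single ECS array was above that of sham, although the single ECS array was dimmer overall. Of the other probe sets of Uqcr10, 1 gave 0.15 and the other -0.34 for single ECS over sham.

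For single ECS over sham, the larger subunits of complex III had smaller ratios than Uqcr10, Uqcrq and Uqcrh. So had the small subunits Uqcrb (-0.06) and Uqcr11 (0.08), so this was not a contrast of size. Uqcrfs1, the Rieske iron-sulfur protein, had 1452.8 units after 11 ECS, 1505.7 after single ECS, 1541.4 after 10 ECS and 1607.5 after sham, with ratios between -0.03 and 0.05. Uqcrc1 had 1719.2, 1820.3, 1770.4 and 1860.2 units, and Uqcrc2 had 2025.6, 2171.9, 2197.0 and 2481.8 units, in that order of arrays. These are the core proteins that face the matrix. For single ECS over sham Uqcrc1 gave 0.09 and Uqcrc2 -0.09, and the other probe set of Uqcrc2 gave 0.06.

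Complex IV was represented by 16 genes, and the probe sets of its isoforms differed in brightness, which depends on the probes as well as on the RNA. Those of the general forms were bright. Cox6a1 had 7368.7 units after 11 ECS, 7125.5 after single ECS, 7301.3 after 10 ECS and 7272.0 after sham. Cox4i1 had 4512.5, 4795.1, 4483.4 and 4688.6 units, and Cox5a had 3951.3, 3848.4, 4085.2 and 4144.4 units, on the same arrays. Cox6a1, Cox4i1 and Cox5a had ratios between -0.05 and 0.10, while another probe set of Cox5a gave -0.25 for 11 ECS over single ECS. The same held for Ndufa4, first named as a subunit of complex I and now counted in complex IV, with 3635.9, 3547.7, 3709.0 and 3827.0 units and ratios between -0.05 and 0.08. Cox6b1, Cox7a2 and Cox8a, the general forms of 3 small subunits, had ratios between -0.10 and 0.12.

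The probe sets of the tissue isoforms of complex IV were dim, and 9 of the 18 values past 1.2-fold in the 4 comparisons were theirs. Cox6a2, the heart and muscle form, had 37.7 units after 11 ECS, 45.8 after single ECS, 39.5 after 10 ECS and 59.9 after sham. It was past 1.2-fold lower in 10 ECS over sham (-0.47) and in 11 ECS over single ECS (-0.27). In both, the array of repeated ECS was the lower. In the latter, 9.45% of probe sets of similar brightness were lower by this limit, a share that pools neighbours of far brighter genes. Of the 500 neighbours of Cox6a2 itself, 37.8% had a narrower range of the relative level over the 4 arrays. Cox7a1, the muscle form, had 14.7 units after 11 ECS, 13.3 after single ECS, 20.7 after 10 ECS and 17.8 after sham, all close to the floor. Cox4i2, the lung form, had 7.5, 14.1, 19.5 and 17.4 units, and Cox6b2, the testis form, had 10.1, 16.4, 22.1 and 17.2 units on those arrays. Both were under the floor after 11 ECS, so their ratios for 11 ECS over 10 ECS of -0.60 and -0.74 are bounds. Cox8b, a muscle form, was under the floor on 3 arrays and had 12.6 units after sham. Cox8c, a testis form, had 82.5 units after 11 ECS, 74.7 after single ECS, 96.7 after 10 ECS and 94.3 after sham, with ratios between -0.06 and 0.16. The striated muscle markers Ckm, Myh7 and Actc1 summed to 56.8 units after 11 ECS, 61.7 after single ECS, 88.1 after 10 ECS and 72.1 after sham. Of these, Actc1 was under the floor on 3 arrays, and the part of such cells in the muscle isoforms was not tested.

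The tissue isoforms made up 3 of 4 values past 1.2-fold in 11 ECS over 10 ECS, 0 of 3 in single ECS over sham, 4 of 7 in 10 ECS over sham and 2 of 4 in 11 ECS over single ECS. For 11 ECS over 10 ECS, the 3 genes past 1.2-fold lower were Cox4i2, Cox6b2 and Cox7a1. There 6.12% of probe sets of similar brightness were lower by this limit. That share pools the neighbours of all 78 genes, most of them far brighter than these isoforms. Of their own 500 neighbours, 30.8% (Cox4i2), 43% (Cox6b2) and 13.2% (Cox7a1) had a narrower range of the relative level over the 4 arrays. For 10 ECS over sham, 3 of the 4 genes past 1.2-fold higher were the same isoforms (0.32, 0.51 and 0.36). Among the 69 subunit genes of at least 500 units, none was past 1.2-fold in 11 ECS over 10 ECS. With the floor raised to 50 units the counts were 1 of 73, 3 of 74, 3 of 74 and 2 of 73 for 11 ECS over 10 ECS, single ECS over sham, 10 ECS over sham and 11 ECS over single ECS.

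Cox7c, a small subunit without tissue isoforms, was the only subunit gene past 1.2-fold higher in both acute comparisons. It had 77.6 units after 11 ECS against 66.0 after 10 ECS (0.32), and 88.9 units after single ECS against 77.6 after sham (0.48). The shares of probe sets of similar brightness past this limit were 8.86% and 9.83%. Its second probe set had 23.4 units after 11 ECS, 18.4 after single ECS, 22.9 after 10 ECS and 27.6 after sham, and gave 0.16 and -0.33. The probe sets of Cox7c therefore had opposite directions after a single ECS, and the brighter of them has an ID that marks shared probes (_s).

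Complex V was represented by 17 genes, with medians of 0.01 for 11 ECS over 10 ECS, 0.05 for single ECS over sham (12 above 0, 5 below), 0.02 for 10 ECS over sham and -0.02 for 11 ECS over single ECS. Atp5a1, the alpha subunit, had 2401.2 units after 11 ECS, 2479.4 after single ECS, 2506.2 after 10 ECS and 2609.6 after sham, and its ratios lay between -0.03 and 0.04. This is a probe set with shared probes (_s). A second one had 1831.1 units after 11 ECS, 1855.0 after single ECS, 1989.3 after 10 ECS and 1812.8 after sham, and gave -0.06 for 11 ECS over 10 ECS, 0.15 for single ECS over sham and 0.24 for 10 ECS over sham. The remaining, dim one gave -0.19, 0.56 and 0.77. Atp5b, the beta subunit, had 3722.9 units after 11 ECS against 4478.4 after 10 ECS (-0.25), and 4222.7 units after single ECS against 4051.1 after sham (0.11). The 10 ECS array was its highest and the 11 ECS array its lowest. It was read by a single probe set, and its ratio for 10 ECS over sham was 0.23, so the signs of Atp5b in these 3 comparisons were those of these other probe sets of Atp5a1.

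Atp5d of the central stalk, the coupling factor Atp5j, Atp5l and Atp5g2 (given below) held the other larger values of complex V. Atp5d, the delta subunit of the stalk, had 2587.2 units after 11 ECS against 2300.9 after 10 ECS (0.20), and 2728.4 units after single ECS against 2377.9 after sham (0.28). Both arrays taken 1 h after ECS were above both others, and the second probe set had the same order, with 1280.1 units after 11 ECS against 1170.3 after 10 ECS (0.19) and 1496.3 units after single ECS against 1201.6 after sham (0.47). Both probe sets of Atp5d have IDs that mark shared probes. Atp5e, the epsilon subunit of the same stalk, had 1089.9 units after 11 ECS against 1149.4 after 10 ECS (-0.02), and 1210.2 after single ECS against 1247.4 after sham (0.13). Atp5j, the coupling factor of the outer stalk, had 2266.6 units after 11 ECS, 2399.9 after single ECS, 2034.5 after 10 ECS and 2728.3 after sham. Its 10 ECS array was the lowest, and 10 ECS over sham gave -0.32. Atp5l, subunit g, had 2006.5 units after 11 ECS against 1994.8 after 10 ECS (0.05), and 2218.5 units after single ECS against 2063.6 after sham (0.22).

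Atp5g1, Atp5g2 and Atp5g3 code for the same mature subunit c, which forms the rotor ring, from 3 genes. Atp5g1 had 1247.2 units after 11 ECS, 1225.3 after single ECS, 1247.5 after 10 ECS and 1297.6 after sham, with ratios between 0.05 and 0.08. Atp5g2 had 1023.4 units after 11 ECS, 847.0 after single ECS, 1024.9 after 10 ECS and 960.2 after sham. Both arrays of repeated ECS were above the other two, with 0.29 for 11 ECS over single ECS and 0.21 for 10 ECS over sham. The second, dim probe set of Atp5g2 had 4.3 units after 11 ECS, 14.3 after single ECS, 31.5 after 10 ECS and 20.4 after sham. It gave 0.73 for 10 ECS over sham and, with 11 ECS under the floor, a bound of -0.22 for 11 ECS over single ECS. Atp5g3 had 5289.8 units after 11 ECS, 5325.5 after single ECS, 4922.6 after 10 ECS and 5325.6 after sham, and its largest ratio was 0.12 (11 ECS over 10 ECS). The 3 genes of this subunit, of which Atp5g2 and Atp5g3 hold different patterns in the promoters shown, thus had different orders over the arrays. Atp5k, whose promoter holds the NRF1 pattern like that of Atp5g2, had 2505.9 units after 11 ECS, 2624.4 after single ECS, 2555.2 after 10 ECS and 2770.7 after sham. Relative to its neighbours it had ratios between -0.02 and 0.01 and the narrowest range of all 78 genes. Its other probe sets gave ratios between -0.06 and 0.09.

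The response to an acute ECS was set against the same response after 10 earlier ECS by the difference of responses, for which the ratio of single ECS over sham was subtracted from the ratio of 11 ECS over 10 ECS. Its median was -0.04 over 77 subunit genes, with 27 above 0 and 50 below, and -0.01 over probe sets of similar brightness. It was -0.05 for complex I, -0.04 for complex II, -0.08 for complex III, -0.00 for complex IV and -0.04 for complex V. Past 1.2-fold were Sdhd (0.27) and Atp5j (0.28) above 0 and Ndufa5 (-0.28), Uqcr10 (-0.29), Atp5b (-0.36), Cox7a1 (-0.26), Cox4i2 (-0.58) and Cox6b2 (-0.98) below 0, where 5.81% and 8.24% of probe sets of similar brightness lay past the limit above and below. The values of Cox4i2 and Cox6b2 rest on signals set to the floor.

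Comparisons that share no array can be read side by side for each gene. Over the 75 subunit genes above the floor on all arrays, the ratios of 11 ECS over 10 ECS and of single ECS over sham had the same sign in 50 genes (66.7%), with Pearson's r of 0.47 and Spearman's rho of 0.34 across genes. Over 5247 probe sets of similar brightness the signs matched in 65.2%, with 0.56 and 0.43. For 11 ECS over single ECS and 10 ECS over sham the signs matched in 49 of 75 genes (65.3%), with 0.51 and 0.47, and in 62.8% of the probe sets of similar brightness, with 0.42 and 0.34. The share of matching signs in the subunit genes was thus near that of the background. Only Cox7c was past 1.2-fold higher in both of the first pair, and only Cox6a2 was past 1.2-fold lower in both of the second. The correlations are across genes, which are not independent replicates, and each comparison rests on the same 2 arrays for all genes.

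**Figure D3:**
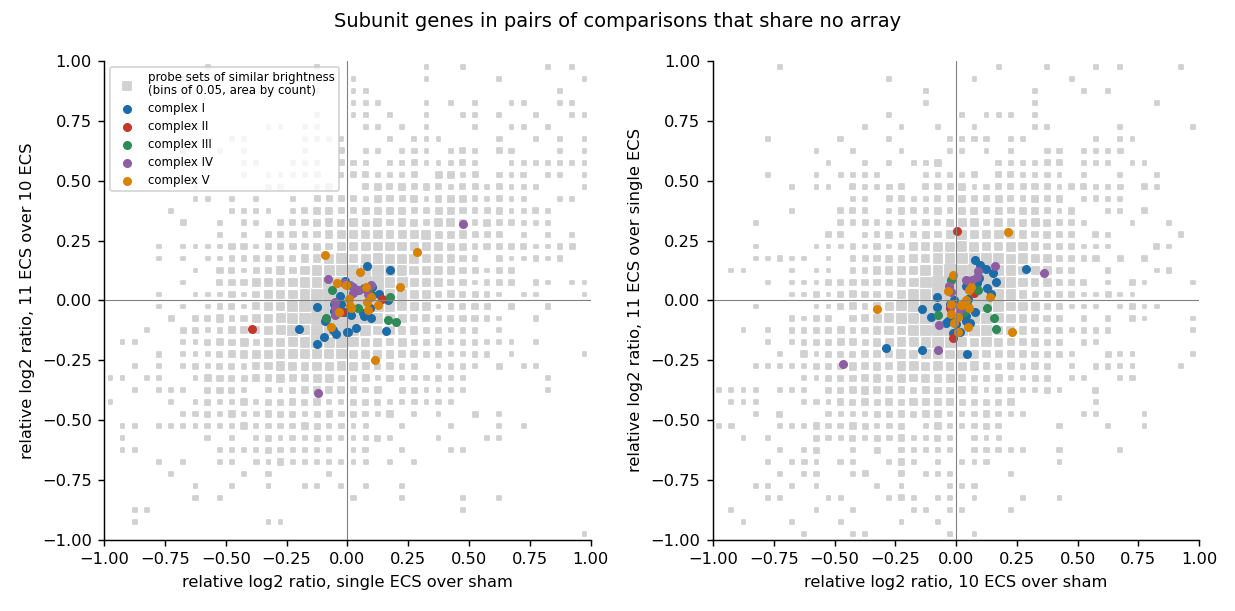
Relative log2 ratios of 75 subunit genes (coloured by complex) in the 2 pairs of comparisons that share no array, over probe sets of similar brightness (grey squares, area by their number), shown between -1 and 1. Subunit genes lie in the middle of the grey cloud, most within 0.25 of 0.

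The subunit genes varied less over the 4 arrays than probe sets of similar brightness. The range of the relative level, from the lowest to the highest of the 4 arrays on the log2 scale, had a median of 0.13 over the 78 genes and of 0.21 over probe sets of similar brightness. It passed 1.2-fold in 12 of 78 genes (15.4%), beside 36.5% of the probe sets of similar brightness. The range was below the median of their own 500 neighbours for 63 of 78 genes: 26 of 33 in complex I, 3 of 4 in complex II, 8 of 8 in complex III, 14 of 16 in complex IV and 12 of 17 in complex V. Among the 69 genes of at least 500 units, a limit set after the values were seen, the median was 0.13 beside 0.19, and 7 (10.1%) passed 1.2-fold beside 31.5%. Over the 46 other probe sets of subunit genes that had at least 500 units, the median was 0.13 beside 0.20 for their own neighbours, and 6 passed 1.2-fold, beside 33.8% of the neighbours. With neighbours taken only from probe sets that were the brightest of their gene, the median of these was 0.21, and 64 of 78 subunit genes lay below it.

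The steadiest genes were spread over complexes I, III, IV and V. The narrowest ranges were those of Atp5k (0.03), Atp5a1 (0.04), Ndufa8 (0.05), Uqcrfs1 (0.05) and Ndufs7 (0.05). Of the 500 neighbours, 0.8% for Atp5k and 1.8% for Atp5a1 had a narrower range. Both genes were picked as the narrowest of 78, so low shares follow in part from the choice. These ranges are those of 1 probe set per gene, and the steadiness of Atp5a1 rests on 1 of its 3. Cox6c, a small subunit of complex IV, had 5227.7 units after 11 ECS, 5280.6 after single ECS, 5060.1 after 10 ECS and 5435.9 after sham, a range of 0.06. The second probe set of Cox6c had 2591.2, 3189.6, 3315.7 and 3612.2 units on these arrays, with -0.33 for 11 ECS over 10 ECS and -0.25 for 11 ECS over single ECS. The widest ranges among the 69 genes were those of Sdhd (0.39), Ndufa2 (0.36), Atp5j (0.32), Ndufb8 (0.29), Atp5d (0.28), Ndufb7 (0.28) and Atp5g2 (0.27). For Sdhd 72.2% and for Ndufa2 80.2% of the neighbours had a narrower range, so even these lay within the usual spread of their neighbours.

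**Figure D4:**
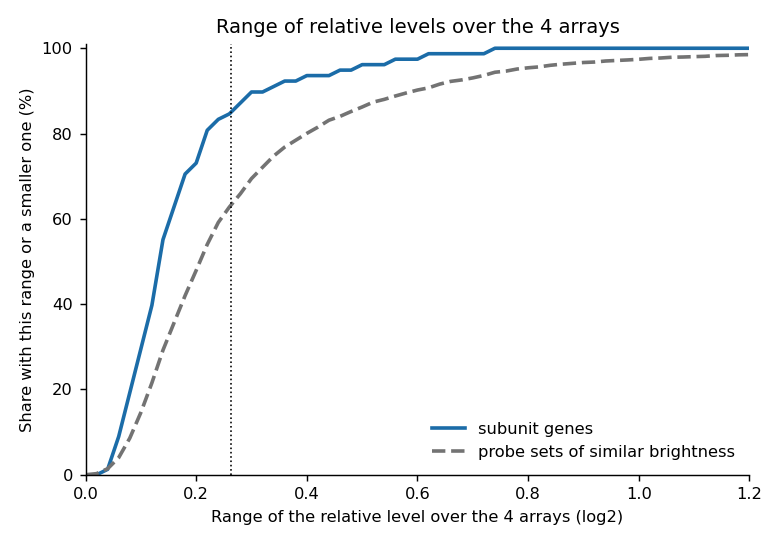
Share of the 78 subunit genes (solid) and of probe sets of similar brightness (dashed) whose range of relative levels over the 4 arrays is at or below the value on the x axis (log2). The dotted line marks 1.2-fold. The solid line lies above the dashed one over most of the axis, with medians of 0.13 and 0.21.

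Among the 6 genes that share only the name, the assembly factors of complex I held the larger values. Ndufaf5 had 212.5 units after 11 ECS against 232.9 after 10 ECS (0.00), and 247.7 units after single ECS against 216.5 after sham (0.47). Ndufaf4 had 307.0 units after 11 ECS against 397.3 after 10 ECS (-0.25), and 279.0 units after single ECS against 434.3 after sham (-0.39). Both arrays taken 1 h after ECS were the lower for Ndufaf4, and its dimmer probe set gave 0.17 and -0.13. Ndufaf7 had 178.9 units after single ECS against 254.7 after sham (-0.22). Ndufaf1, Ndufaf3 and Cox7a2l had ratios between -0.14 and 0.16 in the 4 comparisons.

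Other nuclear genes of mitochondria were taken from lists of their function. Cytochrome c, cytochrome c1 of complex III and the electron carriers of fatty acid oxidation (Cycs, Cyc1, Etfa, Etfb and Etfdh) had 0 of 5 genes past 1.2-fold in each comparison. The enzymes of the citric acid cycle had 1 of 15, Suclg2, in 10 ECS over sham and 0 in the others. Between 31.4% and 37.1% of all genes passed this limit. For single ECS over sham, 3 of 13 further assembly factors were past 1.2-fold lower and 0 higher, and for 11 ECS over 10 ECS 4 were lower and 0 higher, where 19.1% and 16% of all genes were lower. Cox15, which makes the haem of complex IV, had 85.0 units after 11 ECS against 165.0 after 10 ECS (-0.81), and 79.3 units after single ECS against 187.3 after sham (-0.97). Both arrays taken 1 h after ECS were below both others. In 74 genes of the mitochondrial ribosome, which makes the subunits coded by mitochondrial DNA, 12 were past 1.2-fold lower and 1 higher in single ECS over sham, and 3 lower and 4 higher in 11 ECS over 10 ECS. Of all genes, 19.1% were lower and 18% higher in single ECS over sham, and 16% lower and 17.4% higher in 11 ECS over 10 ECS. The share of ribosome genes lower in single ECS over sham was thus near that of all genes. Their other shares were below those of all genes. These are shares of all genes and not of genes of similar brightness.

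Regulators of the nuclear and mitochondrial genes of respiration were read as a list of 13. Tfam packs mitochondrial DNA and helps to start its transcription. It had 251.7 units after 11 ECS against 354.7 after 10 ECS (-0.39), and 226.0 units after single ECS against 423.6 after sham (-0.68). Ppargc1b, a coactivator of NRF1 and ERR, had 218.8 units after 10 ECS against 373.4 after sham (-0.62). Of the factors whose patterns were searched in the promoters, Yy1 had 666.6 units after 11 ECS against 533.2 after 10 ECS (0.39), and 682.4 units after single ECS against 687.8 after sham (0.18). Nrf1 had 60.6 units after 11 ECS, 63.2 after single ECS, 60.6 after 10 ECS and 62.9 after sham, which gave 0.29 for single ECS over sham. Gabpa, a subunit of GABP, had 217.7 units after 11 ECS against 293.3 after 10 ECS (-0.32). Esrrg, an ERR, was dim, with 25.4 units after 11 ECS against 17.5 after 10 ECS (0.66), and 29.1 units after single ECS against 22.3 after sham (0.65). Of all 13 regulators, 3 were past 1.2-fold higher and 3 lower in single ECS over sham, and 3 higher and 2 lower in 11 ECS over 10 ECS, beside the shares of all genes given above. No subunit gene of at least 500 units had a relative log2 ratio as far from 0 as that of Tfam after a single ECS. Tfam itself was under 500 units on every array and had the largest such ratio of the 13 regulators. This contrast is thus of genes unlike in brightness.

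**Figure D5:**
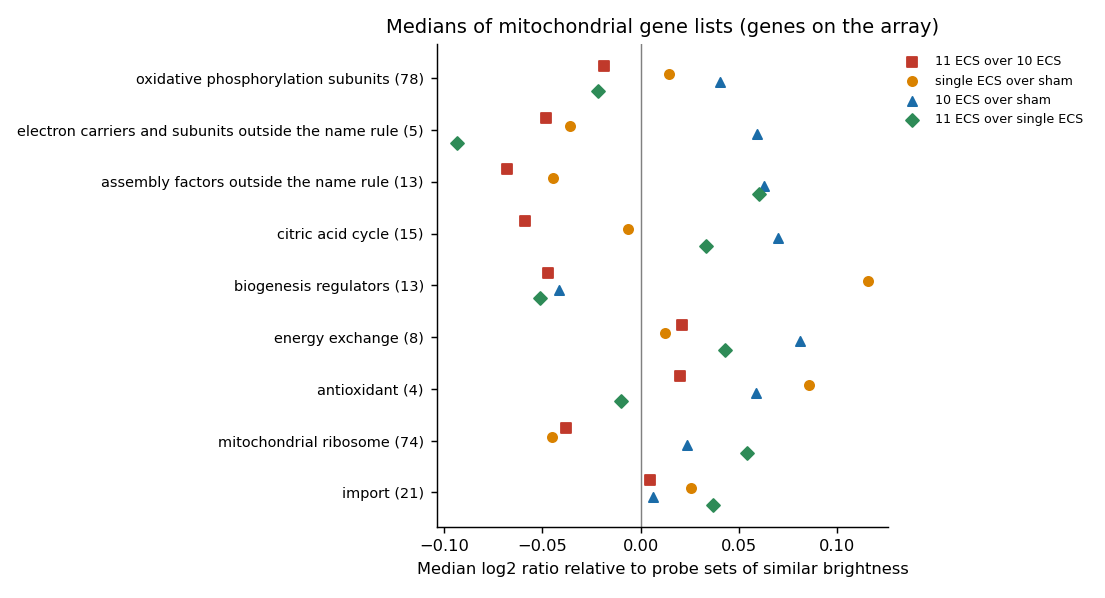
Median relative log2 ratio of mitochondrial gene lists (number of genes on the array in brackets) in 4 comparisons: 11 ECS over 10 ECS (squares), single ECS over sham (circles), 10 ECS over sham (triangles) and 11 ECS over single ECS (diamonds). All medians lie between -0.10 and 0.12, and those of the subunits between -0.02 and 0.04.

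Markers of cell types were read on the same arrays. The mature granule cell markers Calb1, Tdo2, Dsp, Il1r1 and Prox1 summed to 2080.3 units after 11 ECS, 4216.2 after single ECS, 2880.2 after 10 ECS and 5535.6 after sham. In 10 ECS over sham 4 of 5 were past 1.2-fold lower, beside 15.1% of all genes. Prox1, which defines granule cells, had 62.7, 69.8, 57.1 and 68.6 units on these arrays. It gave 0.28 for 11 ECS over 10 ECS, 0.31 for single ECS over sham and -0.11 for 10 ECS over sham. Neuron markers summed to between 8624.8 and 9598.4 units, of which Snap25 alone gave between 8052.2 and 8784.0. Of these markers Syt1 (-0.48), Rbfox3 (-0.29) and Map2 (-0.31), 3 of 4, were past 1.2-fold lower in 11 ECS over single ECS, beside 15.8% of all genes. Syt1 was also lower by this limit in 10 ECS over sham (-0.49). Interneuron markers summed to between 4068.4 and 4637.7 units, most of it Gad1. Of the interneuron markers only Pvalb passed 1.2-fold, with -0.33 in 10 ECS over sham and -0.41 in 11 ECS over single ECS. Astrocyte markers summed to between 2965.2 and 3264.1 units. Among the astrocyte markers Gfap had 114.1 units after 10 ECS against 49.3 after sham (1.37), and in the same comparison Aqp4 gave 0.51, Slc1a3 -0.34 and Aldh1l1 -0.12. Choroid plexus markers summed to 116.0 units after 11 ECS, 265.2 after single ECS, 146.7 after 10 ECS and 156.2 after sham. Most of the single ECS sum was Ttr (215.9 units), which gave 1.95 for single ECS over sham. Kl went the other way, with 38.4 units after single ECS against 74.3 after sham (-0.69). Folr1, under the floor after single ECS, gave -0.07. The sums of oligodendrocyte, microglia, endothelial and pericyte markers kept a ratio of the highest to the lowest array under 1.2, but single markers differed more. In single ECS over sham 3 of 4 microglia markers were past 1.2-fold higher and 0 lower, beside 18% of all genes higher. The endothelial marker Cldn5 gave 0.75 there. Of the pericyte and smooth muscle markers, only Kcnj8 passed the limit in 10 ECS over sham (-0.92), and only Acta2 in 11 ECS over single ECS (0.86). Subunits of respiration are made in all these cells, and the part of a changed cell makeup in their values was not tested.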

How the data were processed

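Total RNA of the dissected DG was pooled within each group, and the authors amplified 100 ng by in vitro transcription from the 3′ end, hybridised 1 array per group and computed signals with the Microarray Suite 5.0 software, listed by the submitters' processing notes as MAS5. The deposited intensity values are these signals on a linear scale, with a value per probe set on each array. How the arrays were scaled to each other is not given in the sources read for this work. Trimmed means (2% off either end) were 207 (11 ECS), 214 (single ECS), 217 (10 ECS) and 239 units (sham), so the arrays shared no target over all probe sets. The detection and change calls of the software were not used.

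From these values 64 control probe sets were left out. Symbols came from the annotation of the array, in which 20380 probe sets had a single symbol, 691 had more than 1 and 1555 had no symbol. Of the 691, 8 carried the name of a subunit and were not taken. All 84 genes matched the RefSeq gene table of GRCm38.p6, with 0 changed symbols, and 45 genes had several probe sets. The floor of 12 is the 25th percentile over all arrays, lower signals were raised to it, and no ratio was formed where both signals were at it. Of the 156 probe sets, 145 were above the floor on all arrays, 8 on some and 3 on none. Log2 ratios were taken for 4 comparisons, less the median of the 500 nearest probe sets outside the family. A probe set can be a neighbour of several genes and was then counted for each. The named genes were, for each complex, those with the largest ratios in single ECS over sham and 10 ECS over sham among genes of at least 48 units on an array, genes past 1.2-fold one way in comparisons that share no array, core subunits and isoform pairs. Ndufa8, Ndufs7, Ndufv2, Ndufb7, Ndufa5, Ndufb2, Cox6c and Atp5k were named after their values were seen, for their ranges, differences or promoters.

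The members and all lists were chosen with earlier results of these data known. With 1 array per group the number of arrays limits the precision, and neither standard errors nor tests could be had. The scripts (Python 3.11.15, numpy 2.4.6, pandas 2.3.3, scipy 1.17.1) were tested on simulated data. Alternatives were other scalings, neighbour numbers, floors and choices of probe sets.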

Additional observations from a re-analysis of the deposited data

Results flagged for a closer look

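In 4 of the subunit genes above the floor on all 4 arrays, the responses to ECS with and without earlier ECS pointed in opposite directions and differed by more than 1.2-fold. Each response is 1 pair of arrays, so the difference was not tested. The difference of responses was -0.36 for Atp5b (-0.25 for 11 ECS over 10 ECS, 0.11 for single ECS over sham), -0.29 for Uqcr10 (-0.09 and 0.20), -0.28 for Ndufa5 (-0.13 and 0.16) and 0.28 for Atp5j (0.19 and -0.09). The 10 ECS array was the brightest of the 4 for Atp5b and the dimmest for Atp5j. Ndufa5 had 1330.3 units after 11 ECS against 1509.1 after 10 ECS, and 1588.8 units after single ECS against 1577.2 after sham, and its second probe set gave a difference of 0.07. The other probe sets of Uqcr10 gave -0.06 and 0.35.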

How the results depend on the processing

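No paired analysis was possible because each group had 1 array, and for the same reason no replicate could be left out. The yardstick was the pooled SD between probe sets of the same gene, combined over both comparisons for the difference of responses. The medians of the family, of each complex, of the difference of responses and of the range moved by less than this spread under all 273 combinations of result and alternative. It is larger than the medians themselves, so it is a wide limit. The sign of the family's median depended on the setting, except in 11 ECS over single ECS. Over all settings it lay between -0.07 and 0.04 for 11 ECS over 10 ECS, -0.08 and 0.15 for single ECS over sham, -0.06 and 0.07 for 10 ECS over sham, -0.07 and -0.00 for 11 ECS over single ECS, and -0.09 and 0.03 for the difference of responses. The count of genes past 1.2-fold in single ECS over sham was 3, and it was 7 with the deposited signals (0 higher, 7 lower) and 7 after median scaling (6 higher, 1 lower). For 10 ECS over sham it was 7, against 4 with the deposited signals and 3 with a floor of 50. For 11 ECS over 10 ECS it was 4, against 1 with a floor of 50. For 11 ECS over single ECS it was 4, against 2 with a floor of 50 and 8 of 59 genes when only probe sets without a suffix in their ID were taken. A floor of 50 removes the dim isoforms of complex IV from these counts. The other 29 counts stayed within 1.5 times. Of the values of named genes 1651 kept within the spread, 42 moved beyond it and 1 reversed: Cox7c in single ECS over sham was -0.33 with its probe set without a suffix, against 0.48. Sdhd in single ECS over sham was -0.15 as the median of its probe sets, against -0.39. The causes were not tested.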

Other observations

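Genes of the proteins that exchange energy between mitochondria and cytosol had median relative log2 ratios between 0.01 and 0.08 in the 4 comparisons. Of 8 genes (the phosphate carrier, ADP/ATP carriers, porins and creatine kinases), 0 were past 1.2-fold in 11 ECS over 10 ECS, single ECS over sham and 10 ECS over sham. Vdac1, a porin of the outer membrane, was past it in 11 ECS over single ECS, with 2810.7 units after 11 ECS against 2420.1 after single ECS (0.27). The antioxidant genes Sod1, Sod2, Prdx3 and Gpx4 had 0 of 4 past this limit in each comparison. Between 13.7% and 16% of the probe sets near the subunit genes in brightness passed it. With so few genes, neither list can be set apart from these shares. The import machinery, which brings nuclear coded subunits into mitochondria, had 1 gene higher and 3 lower by this limit among 20 measured in single ECS over sham, beside 18% and 19.1% of all genes. Timm29, of the inner membrane carrier translocase, had 242.3 units after 11 ECS against 290.9 after 10 ECS (-0.15), and 182.3 units after single ECS against 323.4 after sham (-0.57). All these differences are between single arrays and were not tested.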
